A study of Mus musculus with 8 samples.

Results

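The structural RNAs made by RNA polymerase III followed here were Rn7s1 and Rn7s2, which encode 7SL RNA, together with Rn7sk (7SK RNA), Rmrp (the RNA of RNase MRP) and Rpph1 (the RNA of RNase P). All 5 were found by gene name in the authors' deposited table of 23084 genes. They were chosen by function with the authors' fold changes and p-values of that table already known. Those columns hold the comparison of the study's own analysis, so they are not printed here, and nothing below rests on them. RNA was sequenced from myeloid cells sorted from the spleens of C57BL/6 mice aged 6-8 weeks. The authors sorted such cells from healthy and from tumor-bearing mice, and their text does not say which were used for RNA sequencing. Monocytic cells carried CD11b and Ly6C on their surface and granulocytic cells CD11b and Ly6G. The mice were wt or LmnaMyeKO, in which floxed Lmna (the lamin A/C gene) is deleted by Cre driven from the LysM promoter, which is active in myeloid cells. There were 8 samples in 4 groups of 2: wt CD11b+Ly6C+, LmnaMyeKO CD11b+Ly6C+, wt CD11b+Ly6G+ and LmnaMyeKO CD11b+Ly6G+. The subset was read from the sample titles, whereas a separate marker label gives CD11b+Ly6C+ for all 8.

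The measurement used is 1 value per gene, the authors' mean over their samples of read counts divided by size factors, here the mean signal. Which samples entered that mean, whether libraries outside the 4 groups did, and whether each sample came from 1 mouse or a pool, is not given in the sources used here. Single samples were not analysed, so a mean signal has no SD and no n, no groups are compared and no test is run. The question answered is therefore how much of each structural RNA was counted in these cells, and how much of its sequence is found in no other listed gene. Reads were not split into those that fit 1 gene and those that fit more. In a sorted population, fewer cells that hold an RNA and less of it per cell cannot be told apart. Genes of both labelled cell types stood high in the table. S100a9 and S100a8, alarmin subunits abundant in neutrophils, had mean signals of 725556 (rank 1) and 413320 (rank 3). Itgam, which encodes CD11b, had 54060 (rank 34). Csf1r, the receptor of a monocyte growth factor, had 22160 (rank 119), while Ly6c2 had 14413 (rank 210) and Ly6g 7853 (rank 540). Whether these genes are specific to 1 subset was not tested, so they do not show which subsets entered the mean. Lmna itself had a mean signal of 79.5.

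RNA polymerase III transcribes short, abundant RNAs that are not translated. 7SL RNA is the scaffold of the signal recognition particle (SRP), which binds signal peptides as they leave the ribosome and brings the ribosome to the endoplasmic reticulum. 7SK RNA holds the kinase P-TEFb in an inactive particle through HEXIM proteins, and its release lets RNA polymerase II elongate. RNase P cuts the 5' leader from precursor tRNAs, and RNase MRP, built with largely the same proteins, takes part in processing precursor rRNA. Of these genes, Rn7sk, Rmrp and Rpph1 belong to the class whose promoter lies upstream of the start, which is recognised by the factor SNAPc, whereas 7SL genes also use elements inside the transcript.

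The transcripts of Rn7sk, Rmrp and Rpph1 are printed because their sequence decides which reads can be assigned to them. They are given 5' to 3' in DNA letters, from GENCODE M21 on the mm10 build. Capitals mark bases that lie in a stretch of at least 50 bases also present, on either strand, in an annotated transcript of another gene of the table. Small letters mark bases outside any such stretch. Rmrp is printed whole, and Rn7sk and Rpph1 from base 1 to base 300.
Rn7sk: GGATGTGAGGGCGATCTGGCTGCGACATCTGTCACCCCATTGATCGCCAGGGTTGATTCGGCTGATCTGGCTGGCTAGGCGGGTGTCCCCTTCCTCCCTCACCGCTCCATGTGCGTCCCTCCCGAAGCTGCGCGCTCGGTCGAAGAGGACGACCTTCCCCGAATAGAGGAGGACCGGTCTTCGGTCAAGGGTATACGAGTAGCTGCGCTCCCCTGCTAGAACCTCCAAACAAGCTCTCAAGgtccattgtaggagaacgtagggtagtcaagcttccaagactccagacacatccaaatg
Rmrp: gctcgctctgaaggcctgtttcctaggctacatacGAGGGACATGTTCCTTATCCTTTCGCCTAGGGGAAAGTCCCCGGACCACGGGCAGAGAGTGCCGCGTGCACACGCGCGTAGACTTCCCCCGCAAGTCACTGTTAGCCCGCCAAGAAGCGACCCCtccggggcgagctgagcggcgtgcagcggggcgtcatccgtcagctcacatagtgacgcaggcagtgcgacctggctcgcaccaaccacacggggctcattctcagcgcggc
Rpph1: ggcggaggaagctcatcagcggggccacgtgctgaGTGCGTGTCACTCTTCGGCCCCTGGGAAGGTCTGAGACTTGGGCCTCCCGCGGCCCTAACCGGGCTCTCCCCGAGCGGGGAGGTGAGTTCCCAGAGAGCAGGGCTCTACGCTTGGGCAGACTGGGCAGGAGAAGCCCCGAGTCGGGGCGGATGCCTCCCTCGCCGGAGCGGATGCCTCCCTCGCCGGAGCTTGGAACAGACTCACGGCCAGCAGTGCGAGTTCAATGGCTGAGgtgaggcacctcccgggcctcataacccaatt
Over the whole transcripts, 90 of 331 bases of Rn7sk, 147 of 271 of Rmrp and 86 of 319 of Rpph1 were in no such stretch. The 300 bases of Rn7s2 had 0 differences from those of Rn7s1, so 0 bases of either were outside a shared stretch.

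The genes lie on 4 chromosomes. Rn7s1 (ENSMUSG00000099021) is at chr12:69159295-69159594 on the plus strand. Rn7s2 (ENSMUSG00000099250) is at chr12:69361182-69361481 on the minus strand, so the starts of the pair are 202186 bases apart. Rn7sk (ENSMUSG00000065037) is at chr9:78175303-78175633 on the minus strand. Rmrp (ENSMUSG00000088088) is at chr4:43492788-43493058 on the minus strand. Rpph1 (ENSMUSG00000092837) is at chr14:50807449-50807767, also on the minus strand. Each has a single exon. The annotation types the first 3 as misc_RNA, and Rmrp and Rpph1 as ribozymes.

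The structural RNAs fell into a higher and a lower set. Rn7s1 had a mean signal of 89.4, rank 10435 of 23084, above 54.8% of the listed genes. Rn7s2 had 58.9, rank 11166. Rn7sk had 52.4, rank 11363. These 3 lay above the median of all listed genes, which was 46.8. Among the 14312 genes with a mean signal of at least 10 they lay below the median, with 27.1%, 22.0% and 20.6% of those genes lower than Rn7s1, Rn7s2 and Rn7sk. Rmrp had a mean signal of 9.42 (rank 14451) and Rpph1 one of 9.05 (rank 14526), above 37.4% and 37.1% of the genes. The order of Rmrp and Rpph1, like that of Rn7s2 and Rn7sk, cannot be set against replicate spread here.

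**Figure D1:**
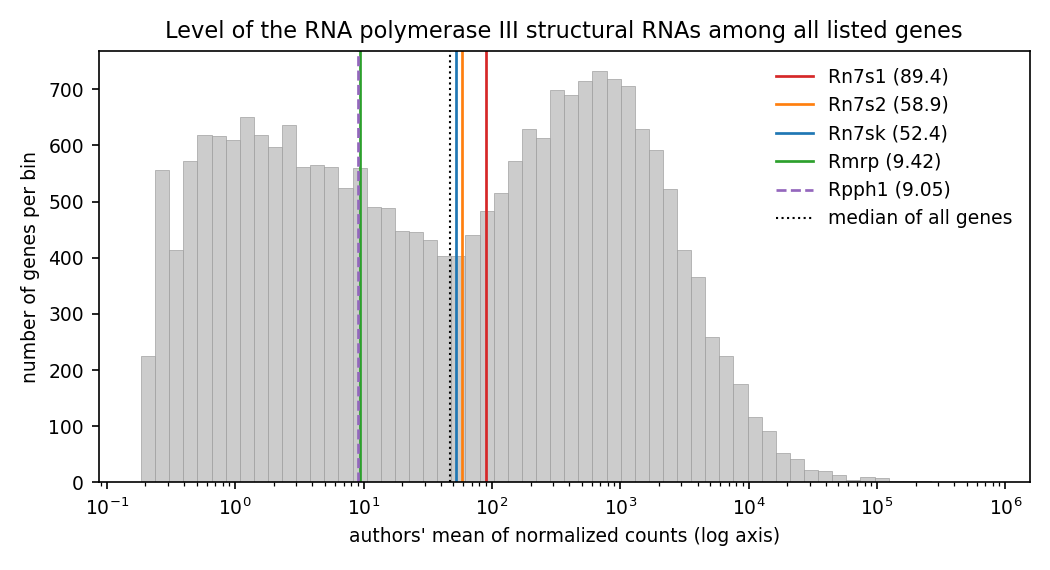
Histogram of the authors' mean of normalized counts over the 23084 listed genes (x, log axis; y, genes per bin), with a vertical line for each structural RNA and a dotted line for the median of all genes at 46.8. Rn7s1, Rn7s2 and Rn7sk lie in or beside the trough between the 2 peaks of the histogram, and Rmrp and Rpph1, at 9.42 and 9.05, lie inside the lower peak.

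The 5 RNAs together had a mean signal of 219, which is 8.69 in every 1000000 of the signal summed over all genes. Without the genes of the mitochondrial chromosome the share was 9.08 in 1000000. How RNA was selected for the libraries, and the size of the fragments kept, are not given in the sources used here, and their part in these levels was not tested.

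Set per kilobase of merged exon, a scale that allows for length, the RNAs stood higher. Dividing by length raises short genes against longer ones. The lengths are those of GENCODE M21, while the authors counted in M12. Rn7s1 had 298 per kb, above 84.7% of the genes that had a length, and Rn7s2 had 196, above 79.4%. For Rn7sk the level was 158 per kb, above 76.3%. Rmrp had 34.7 per kb and Rpph1 28.4, above 56.6% and 54.2%. As a scale, 15697 protein-coding genes had a median of 60.2 per kb, which lay below the first 3 RNAs and above the 2 ribozymes. Because the copies of 7SL are identical, their levels were added, which gave 495 per kb. On the per kb scale 7SL RNA was 3.13 times Rn7sk and 14.2 times Rmrp. Rn7sk was 4.55 times Rmrp, and Rmrp 1.22 times Rpph1.

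SRP is built from 7SL RNA and a small set of proteins, and the RNA stood above all but 1 of the protein genes listed for it. Srp14, part of the domain that slows translation, had 1002 per kb, against 495 for 7SL. Its partner Srp9 had 214. Srp54b, a gene of the GTPase that binds the signal peptide, had 409, whereas Srp54a had 59.4. The Srp54 genes are close copies of each other, so the split between these values is uncertain. Srp68 and Srp72, which form a pair on the RNA, had 336 and 303, and Srp19, which helps Srp54 to bind, had 132. Over the 7 genes found the median was 303 per kb. Of all genes with a length, 88.3% lay below Srp54b at 409 per kb and 91.3% below Cdk9 at 560. 7SL RNA at 495 lies between these, so it stood above most genes of any kind, not SRP protein genes in particular. The receptor that takes SRP to the membrane was represented by Srpr at 648 and Srprb at 103 per kb.

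The position of 7SK RNA among its partners differed, with 5 of 7 protein genes above it. Hexim1, the inhibitor that 7SK RNA presents to P-TEFb, had 605 per kb, while its paralogue Hexim2 had 10.7. Cdk9, the kinase of P-TEFb, had 560. Its cyclins Ccnt1 and Ccnt2 had 178 and 158, the latter within 1 unit of the 158 per kb of Rn7sk. Mepce, which caps the 5' end of 7SK RNA, had 394, and Larp7, which binds its 3' end, had 165. The median of the 7 genes was 178 per kb. Of all genes with a length, 76.3% lay below Rn7sk.

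RNase P and RNase MRP share most of their proteins, and 6 of the 11 genes listed for them lay above both RNAs. The 6 were Rpp25l (215 per kb), Rpp21 (202), Pop7 (136), Pop5 (91.5), Rpp14 (82.7) and Pop4 (76.3). Below both RNAs were Rpp38 (26.9), Rpp30 (20.7), Pop1 (17.3), the largest protein of the complex, Rpp40 (5.57) and Rpp25 (0.529). Rpp25 and Rpp25l encode related proteins, and nearly all signal of the pair was on Rpp25l. The median of the 11 was 76.3 per kb, more than the 34.7 of Rmrp and the 28.4 of Rpph1. Of all genes with a length, 56.6% lay below Rmrp and 54.2% below Rpph1, so the split of the 11 was near that of all genes.

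**Figure D2:**
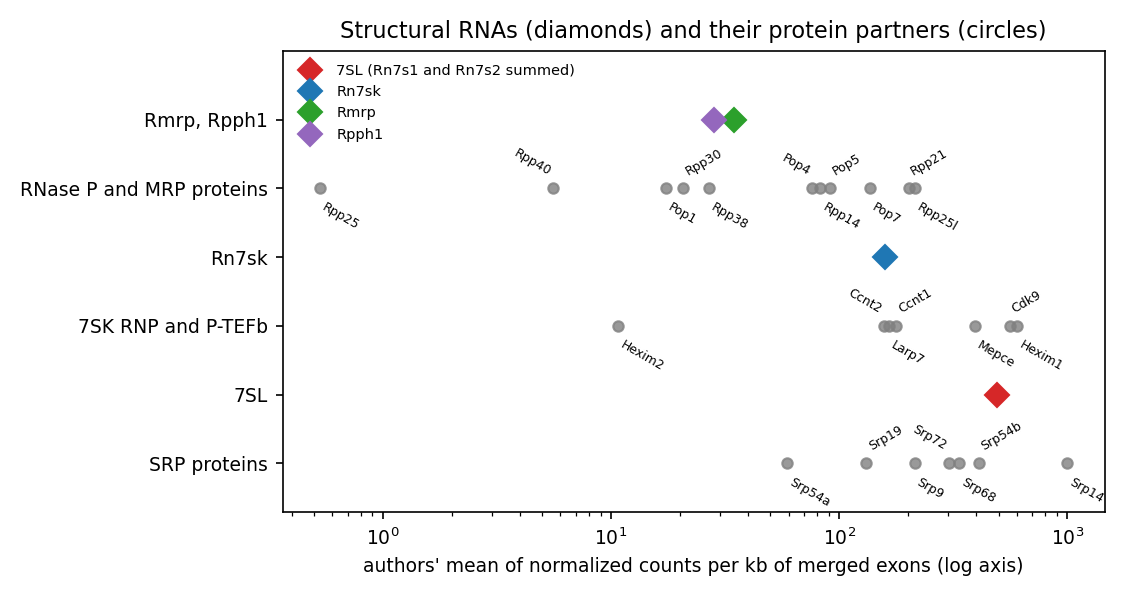
Level per kilobase of merged exons (x, log axis) of each structural RNA (diamonds) and of each gene of its protein partners (circles, named), from the authors' mean of normalized counts. The 7SL diamond at 495 lies right of all SRP protein genes but Srp14, Rn7sk at 158 lies at the left edge of a cluster that holds all of its partners but Hexim2, and Rmrp and Rpph1 lie between 5 lower and 6 higher genes.

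These positions depend on the length used, since a fragment as long as a short RNA has few places to start in it. With 200 bases taken off every length, 7SL RNA rose to 1484 per kb, with 0 of 7 SRP protein genes above it. Rn7sk was then at 399.8 with 3 of 7 above, and Rmrp at 133 with 3 of 11 above. Rpph1 was at 76.1, and the same number of genes, 6 of 11, stayed above it.

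Every gene listed for the machinery that makes the RNAs had a row. The 18 subunit genes of RNA polymerase III had a median of 118 per kb and were highest for Polr1d (348), a subunit shared with RNA polymerase I. TFIIIB, which places the polymerase at its start site, had a median of 76.8 over 4 genes, from 39.2 for Brf2, the form used at upstream promoters, to 134 for Bdp1. The 7 genes of TFIIIC and TFIIIA, which serve promoters inside the gene, had a median of 131, from Gtf3c5 (42.7) to Gtf3c2 (253). SNAPc, which serves the upstream promoters of Rn7sk, Rmrp and Rpph1, had a median of 61.3 over 5 genes, from Snapc1 (29.9) to Snapc5 (562). Maf1, the repressor of RNA polymerase III, had 1131 per kb and was above all of these. Ssb, which encodes the La protein that binds the 3' ends of new polymerase III transcripts, had 765.

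Of 7 names on a list of other RNA polymerase III transcripts, 2 were found. Rny3, a Y RNA bound by the Ro protein, had a mean signal of 0.597 and 5.85 per kb. Vaultrc5, the RNA of the vault particle, had 0.834 and 5.83 per kb. Both were below each of the 5 structural RNAs on both scales, and both are shorter, at 102 and 143 bases.

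By mean signal, the 5 genes stood near the top among the short RNAs of the table. The annotation types 155 listed genes as misc_RNA, ribozyme, snRNA, snoRNA, scaRNA or miRNA. The 150 that are not among the 5 had a median mean signal of 0.659. Of these, 1 was above Rn7s1: Mirt2, typed misc_RNA, at 238. Mirt2 and Gm22513, an snRNA gene at 9.74, were the 2 above Rpph1, and the next below it was Gm26083, a scaRNA gene at 7.17. Per kilobase, Mirt2 (834), Gm22513 (59.4) and Gm26083 (37.1) stood above both ribozymes. Others lay between Rmrp and Rpph1, such as 7 U1 snRNA genes at 33.1 each. Genes were ranked singly, without adding identical copies. The 7 identical U1 genes (mean signal 5.42 each) and 4 identical U2 genes (3.47 each), if added, would stand above both ribozymes. The 5 RNAs held 32.8% of the summed signal of the 155. Mirt2 alone, at 238, had more than the 219 of the 5 together. Most short RNA genes of the annotation had no row: 52 of 562 misc_RNA, 31 of 1383 snRNA, 38 of 1507 snoRNA and 24 of 2202 miRNA genes were listed. Mirt2, Gm22513, Gm26083 and the U1 and U2 genes were picked for their values.

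**Figure D3:**
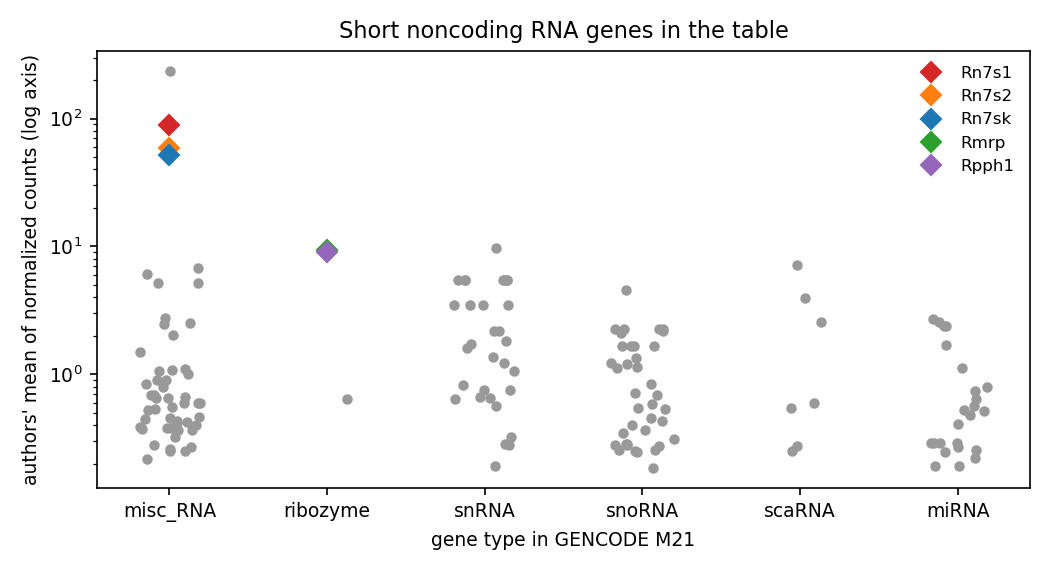
Authors' mean of normalized counts (y, log axis) of the listed short noncoding RNA genes by GENCODE M21 type (x), where grey points are single genes spread sideways for legibility and diamonds are the 5 structural RNAs. All grey points but Mirt2 at 238 and Gm22513 at 9.74 lie below the lowest diamond, Rpph1 at 9.05.

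The shared stretches differ in kind between the RNAs. For the 7SL genes the sharing was between the pair: all 251 windows of 50 bases of Rn7s1 are in Rn7s2. Rn7s6, a further 7SL-related gene, held 124 of the windows and had a mean signal of 2.02. Gm24105 held 9 and had 1.11. Rn7sk shared 192 of 282 windows (68.1%) with Gm24447, a gene that matches its bases 1 to 241 and had a mean signal of 0.893, and 42 of the same windows with Gm24146, at 0.596. The part of Rn7sk in small letters is thus its last 90 bases. Rmrp shared 75 of 222 windows (33.8%), all with Ccdc107 on the opposite strand, and Rpph1 184 of 270 (68.1%), all with Ccnb1ip1 on the same strand. The share of Rmrp was 14.5% in windows of 100 bases. It was 100% against all genes of GENCODE M21, which holds a second Rmrp gene model that has no row in the table, so the 147 bases of Rmrp in small letters are distinct among listed genes only.

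Over the 23004 genes that could be compared, 48.1% shared no window with another listed gene and 1.58% shared every window, as both 7SL genes do. At least the share of Rn7sk was reached by 6.38% of genes, that of Rpph1 by 6.37% and that of Rmrp by 13.8%.

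**Figure D4:**
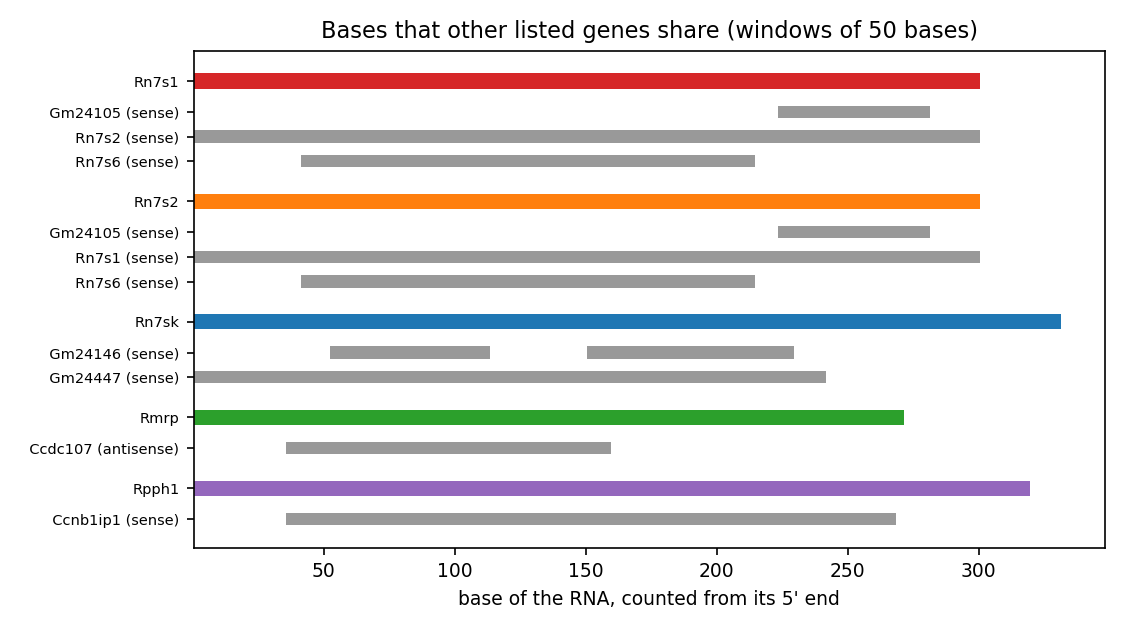
Each structural RNA drawn to length (coloured bars; x, base counted from its 5' end) with the stretches that other listed genes share with it in windows of 50 bases (grey bars, with the strand relative to the RNA). Both 7SL genes are covered whole by each other, Rn7sk over bases 1 to 241 by Gm24447, Rmrp over bases 36 to 159 by the opposite strand of Ccdc107, and Rpph1 over bases 36 to 268 by Ccnb1ip1.

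Although Rn7s1 and Rn7s2 have the same sequence, their mean signals were unequal. Rn7s1 had 60.3% of their sum and Rn7s2 39.7%, a ratio of 1.52. A read inside either transcript fits both, so this split is uncertain, and the sum of 148 was used above. Of 39 other sets of listed genes with identical single transcripts, 28 had equal mean signals within 1e-06, such as 7 U1 snRNA genes including Rnu1a1, each at 5.42, and 4 U2 snRNA genes including Rnu2-10, each at 3.47. The other 11 sets were unequal, and 7 of them had a ratio at least that of the 7SL pair, up to 8.90 for Gm2574 and Gm5138. These snRNA and predicted genes were picked for their values. The sequences were compared in GENCODE M21, while the authors counted in M12, whose sequences were not used here.

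The neighbours of the genes differed widely in level. Rmrp overlaps Ccdc107, a protein-coding gene on the opposite strand, over 159 bases, of which 124 are exonic in both. Ccdc107 had a mean signal of 108 against 9.42 for Rmrp. Whether the authors' counting used strand is not given in the sources used here, and without strand reads from the overlap cannot be told apart. Rpph1 starts 35 bases from the start of Ccnb1ip1 on the same strand and overlaps it over 284 bases, 233 of them exonic. Ccnb1ip1, which encodes a cyclin B1 interacting protein, had a mean signal of 7.73 against 9.05 for Rpph1, so a read in the shared exon could be assigned to either. Rn7s1 starts 109 bases from the start of Rps29, a ribosomal protein gene on the opposite strand with a mean signal of 8403, and does not overlap it. Rn7s2 starts 4316 bases from Nemf (1045), and Rn7sk 281 bases from C920006O11Rik (8.41), with no overlap in either case.

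The RNAs were rich in G and C, from 58.0% in Rn7sk through 62.3% in the 7SL genes and 64.2% in Rmrp to 67.1% in Rpph1. The letters GATC, which read the same on both strands and in RNA form part of the HEXIM binding site of 7SK RNA, occur in Rn7sk at bases 13, 42 and 64. All 3 lie in the stretch shared with Gm24447. GATC also occurs in both 7SL genes, at 4 places in each, and not in Rmrp or Rpph1. It is a common string, present in the first 300 bases of 58.3% of 131058 annotated transcripts. The B box of promoters inside the gene, searched as GTTCNANNC on both strands, matched none of the RNAs in sense and Rpph1 at 1 place in antisense, and 9.58% of the same transcript starts held a match.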

How the data were processed

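The authors used cutadapt 1.14 for trimming, STAR 2.5.2b in 2-pass mode for alignment to mm10, RSEM 1.3.0 for quantification with GENCODE M12, and DESeq2 1.20.0 for testing. The authors' deposited signal is the mean, over samples, of counts divided by size factors. The 6 further columns hold the authors' comparison of LmnaMyeKO with wt cells and were not used. They are log2 fold change, its standard error, test statistic, p-value, adjusted p-value and signed fold change. The table does not give the depth of any sample. All 1533 values under 0.45 were whole combinations of 8 step sizes (within 3e-06), a search made after the data were seen. The search was set to return 8 step sizes, and it kept the set that accounted for most of these same values. The number 8 is thus a setting and not a result. All but 1 of the steps were built from the lowest common values, so those values fit by construction. No step could be tied to a sample, so no reads were recovered. If each step were 1 read in 1 of 8 averaged libraries, the size factors would have a geometric mean of 1.79. Such factors are usually near 1. Whether the mean covers libraries beyond the 8 samples was not tested.

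From the signal, ranks, shares and levels per kilobase of merged exons were computed (Python 3.11.15, numpy 2.4.6, pandas 2.3.3). The design provided for a table without sample values, and that branch was followed. GENCODE M21, later than M12 but also on mm10, held 23004 of the 23084 identifiers and gave positions, types and sequences. Windows of 50 bases were compared by exact match. The window search and the step search were tested on simulated data. The genes named are the 5 RNAs, their protein partners, the highest and lowest gene of each other list, the other polymerase III RNAs, overlapping or nearest genes, and Lmna. One item that this rule names, and one sequence, are not reported here. The lineage markers, the genes that share windows, and the sets of identical genes were added after the data were seen. The 5 RNAs and the lists were chosen with earlier results of these data known.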

Additional observations from a re-analysis of the deposited data

How the results depend on the processing

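Among the 14312 genes with a mean signal of at least 10, the share of genes below was 27.1% for Rn7s1, 22.0% for Rn7s2 and 20.6% for Rn7sk, and Rmrp and Rpph1 fell under the minimum. Without mitochondrial genes the 5 RNAs made up 9.08 in 1000000 of the signal. With 200 bases off each length, 7SL was at 1484, Rn7sk at 399.8, Rmrp at 133 and Rpph1 at 76.1 per kb, with 0, 3, 3 and 6 protein partners above. The length of the longest transcript moved no count of partners by over 1.5 times. Windows of 75 and of 100 bases, chosen after the data were seen, gave shared shares of 65.0% and 61.2% for Rn7sk, 25.4% and 14.5% for Rmrp, and 64.9% and 60.9% for Rpph1. Against all genes of GENCODE M21 the share of Rmrp was 100%, since that release holds a second Rmrp gene model, which has no row in the table, and the other shares did not move.

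No paired analysis was possible because single samples were not analysed, and leaving out replicates was not run for the same reason. The planned searches upstream and downstream of the genes (TATA box, octamer, CRE and a run of T) were not run, because no sequence of those regions was used here. Precision is limited by the single mean per gene, which carries no error.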
